A study of Mus musculus with 8 samples.

Results

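Tmem176a and Tmem176b are neighbouring genes that encode small four-pass transmembrane proteins. Their mRNA was followed across T follicular helper (Tfh) cells with and without a label for a Th17 past. These 2 members were chosen by gene name, out of 16735 genes present in both deposited tables of estimated read counts. All groups derive from K/BxN Th17 fate-mapping mice: K/BxN mice develop autoimmune arthritis, and the fluorescent protein ZsGreen labels cells that once entered the Th17 state. Neither the promoter behind the labelling nor the animals' age or pooling is given in these sources. CD4+ T cells enriched from spleen and from Peyer's patch, the lymphoid follicles of the small intestine, were sorted by flow cytometry. The ZsGreen+ and the ZsGreen- populations shared the gate CD4+ TCRβ+ CD25- CXCR5+ PD-1+. By this gate all 4 groups are Tfh cells, and they share a genotype and differ in tissue and in ZsGreen. Each group had 2 libraries, 1 in each of 2 experiments.

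Both proteins belong to the family of CD20-like (MS4A-like) membrane proteins and sit largely in the membranes of intracellular vesicles. Tmem176b is known as a cation channel of endosomes and phagosomes in dendritic cells, where it has been linked to antigen presentation and to restraint of the inflammasome. In lymphocytes the pair is known for high expression in type 17 cells, which include Th17 cells and type 3 innate lymphoid cells.

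The genes lie head to head on chromosome 6. In the deposited tables (mm39) Tmem176a (ENSMUSG00000023367) spans positions 48817853 to 48824005 on the plus strand and Tmem176b (ENSMUSG00000029810) positions 48810752 to 48818430 on the minus strand, so that their first 578 bp overlap. In GENCODE M21 gene models 81 bp of exon are shared, which is 2.13% of the exon length of Tmem176a (3810 bp) and 3.42% of that of Tmem176b (2371 bp). The library notes name a preparation without strand information, and reads within this overlap cannot be assigned to one gene by strand. The estimated counts of both genes were within 0.01 of a whole number in every library.

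RefSeq start sites of the pair lie so close that their promoter windows, 300 bases that begin upstream of a start site and end just past it, share sequence on opposite strands. The table of promoters (GRCm38.p6) holds 2 windows for Tmem176a and 3 for Tmem176b. The windows printed are the pair of windows that overlap most, and capitals mark the 219 bases present in both, read on opposite strands. The Tmem176a window is chr6:48841406-48841705 on the plus strand and the Tmem176b window is chr6:48841325-48841624 on the minus strand.
Tmem176a: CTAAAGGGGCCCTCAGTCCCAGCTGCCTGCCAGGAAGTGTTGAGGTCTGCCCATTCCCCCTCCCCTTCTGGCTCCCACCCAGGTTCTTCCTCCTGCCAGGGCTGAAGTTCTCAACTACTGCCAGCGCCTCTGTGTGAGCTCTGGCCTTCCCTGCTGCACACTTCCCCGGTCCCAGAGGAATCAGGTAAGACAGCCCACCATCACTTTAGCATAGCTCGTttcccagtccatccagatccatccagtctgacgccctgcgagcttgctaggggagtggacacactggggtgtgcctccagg
Tmem176b: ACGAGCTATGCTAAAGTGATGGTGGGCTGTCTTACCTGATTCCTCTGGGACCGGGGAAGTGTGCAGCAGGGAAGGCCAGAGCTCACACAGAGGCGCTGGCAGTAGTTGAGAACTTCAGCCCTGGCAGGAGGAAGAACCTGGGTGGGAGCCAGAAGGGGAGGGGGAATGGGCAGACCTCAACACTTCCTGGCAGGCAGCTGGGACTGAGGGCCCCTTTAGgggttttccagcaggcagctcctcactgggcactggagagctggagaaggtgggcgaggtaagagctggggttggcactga
The nuclear receptor half-site AGGTCA, which Rora, a nuclear receptor of Th17 cells, is known to bind, was searched on both strands of all 5 windows and occurred in 0 of them, against 16.3% of the 32851 promoter windows of the same length. The longer form TAGGTCA, which contains the first motif, was also in 0 of the 5 and in 2.61% of all windows. The 5 windows overlap one another and are not 5 independent searches, so 0 hits cannot be read as a lack against the share of all windows. These counts describe the letters in the windows alone.

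Libraries held 9950042 to 15318207 estimated counts over the genes in both tables. In log2 CPM (counts scaled to a common library total) the leading principal component separated the experiments and held 66.4% of the variance, and for this reason values are given for each experiment. The T helper genes of the sort were present in every library, with Cd4 at 673 to 1356 CPM and Cxcr5 at 105 to 802 CPM. Of 9 T helper genes, 0 were called by edgeR between the sorts of Peyer's patch (0 at an unadjusted p under 0.05, 0 by DESeq2), while Cxcr5 (-1.69 log2) and Cd3e (-0.83) fell in spleen ZsGreen+ cells, where 4.09% of all genes were called lower. In spleen 4 of the 9 were lower at an unadjusted p under 0.05, among them Bcl6 (-0.92) and Pdcd1 (-0.88). DESeq2 called 4 lower. Between the tissues in ZsGreen+ cells, edgeR called Cxcr5 (2.47), Bcl6 (1.49) and Icos (0.82) higher in Peyer's patch and 0 of the 9 lower. For that comparison 5.51% of all genes were called higher. The labels do not say whether the 2 libraries of a group came from separate animals, and the p-values therefore rest on a spread that could be technical only. In bulk RNA, a larger share of expressing cells and more mRNA per cell cannot be told apart.

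Both genes were low in ZsGreen- Tfh cells and high in ZsGreen+ Tfh cells of both tissues, with the highest level in spleen. Tmem176a stood at 4.30 CPM in experiment 1 and 5.10 CPM in experiment 2 in Peyer's patch ZsGreen- cells, scaled by the trimmed mean of M-values (TMM). In Peyer's patch ZsGreen+ cells it stood at 19.7 and 64.7 CPM. In spleen ZsGreen- cells it stood at 2.73 and 5.06 CPM, and in spleen ZsGreen+ cells at 107 and 159 CPM. All 4 ZsGreen+ libraries were thus above all 4 ZsGreen- libraries, as they were for 0.978% of the 14418 genes tested, and the lowest ZsGreen+ library was that of Peyer's patch in experiment 1.

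Tmem176b followed the same order. It had 7.46 CPM in experiment 1 and 7.31 CPM in experiment 2 in Peyer's patch ZsGreen- cells, and 26.5 and 94.2 CPM in Peyer's patch ZsGreen+ cells. Spleen ZsGreen- cells had 3.32 and 6.44 CPM, and spleen ZsGreen+ cells had 102 and 229 CPM. Again no ZsGreen+ library overlapped with a ZsGreen- library. Within each ZsGreen+ group experiment 2 was the higher one for both genes, and the spread between the 2 libraries was widest in Peyer's patch ZsGreen+ cells relative to their mean, at 42.2 ± 31.8 CPM (SD, n = 2) for Tmem176a and 60.3 ± 47.9 CPM for Tmem176b.

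**Figure D1:**
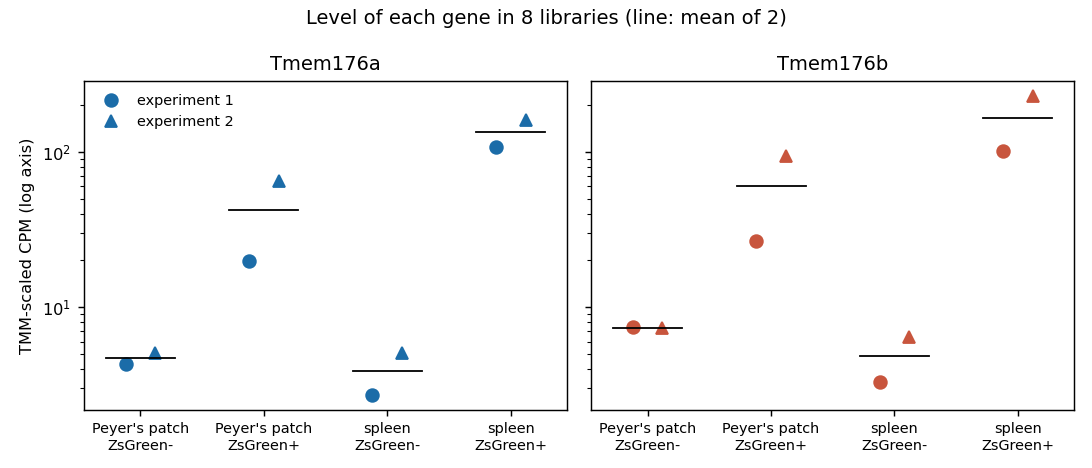
TMM-scaled CPM of Tmem176a (left) and Tmem176b (right) on a log axis in the 4 groups, with circles for experiment 1, triangles for experiment 2 and a line at the mean of 2 libraries. The spleen ZsGreen+ libraries sit between 102 and 229 CPM over both genes, and the ZsGreen- libraries between 2.73 and 7.46 CPM.

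In spleen, the sort comparison asks which transcripts mark Tfh cells labelled for a Th17 past outside the gut, and both genes rose. The log2 fold change of Tmem176a was 5.14 ± 0.37 (SE, 35.2-fold) with an adjusted p of 0.000361 by edgeR's quasi-likelihood test with Benjamini-Hochberg adjustment. Its 95% interval ran from 4.28 to 5.997, and the log2 differences within experiments 1 and 2 were 5.22 and 4.94. Tmem176b had a log2 fold change of 5.03 ± 0.47 (SE, 32.7-fold, edgeR adjusted p = 0.00538), with an interval from 3.82 to 6.25 and 4.88 and 5.12 within the experiments. Over all genes 4.53% were called higher in spleen ZsGreen+ cells. By size of the log2 fold change, Tmem176a ranked 24 and Tmem176b 27 of the 14418 genes.

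The call for Tmem176a in spleen held with each of the 8 libraries left out in turn, with a log2 fold change of 4.84 to 5.39 and a highest adjusted p of 0.0174. The log2 fold change of Tmem176b stayed between 4.94 and 5.13, while its call was lost without replicate 1 or 2 of spleen ZsGreen- (edgeR adjusted p = 0.0857 and 0.123) or without replicate 1 of spleen ZsGreen+ (adjusted p = 0.0525).

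In Peyer's patch, where the same comparison addresses the gut signature of the labelled Tfh cells, Tmem176a rose and Tmem176b did not pass the test. Tmem176a had a log2 fold change of 2.94 ± 0.34 (SE, 7.69-fold, edgeR adjusted p = 0.0203), with an interval from 2.14 to 3.75. Tmem176b had 2.71 ± 0.43 (SE, 6.53-fold) with an interval from 1.60 to 3.82, an unadjusted p of 0.00148 and an edgeR adjusted p of 0.166. The background was 0.284% of genes called higher, and 0.257% were called higher in both tissues. Within experiments 1 and 2 the log2 differences were 2.16 and 3.63 for Tmem176a and 1.81 and 3.66 for Tmem176b, so that experiment 2 gave the larger change for both genes.

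By the criterion that the study set for its signature, a fold change of at least 1.5 at a p under 0.05, both genes counted as higher in ZsGreen+ cells of both tissues when the unadjusted p was used. That criterion called 2.64% of genes higher in Peyer's patch and 6.4% in spleen. The call for Tmem176a in Peyer's patch did not survive the loss of any ZsGreen- library, with edgeR adjusted p = 0.166 and 0.162 without replicates 1 and 2 of Peyer's patch ZsGreen- and 0.1 and 0.0929 without replicates 1 and 2 of spleen ZsGreen-. Tmem176b passed with DESeq2 (adjusted p = 7.85e-11) and with limma voom (adjusted p = 0.0243), and also by edgeR when any 1 of the 4 Peyer's patch libraries was left out (adjusted p = 0.00845 to 0.0499).

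Whether the sort difference itself was larger in spleen than in Peyer's patch was tested as an interaction. The difference of the log2 fold changes, spleen minus Peyer's patch, was 2.20 ± 0.50 (SE) for Tmem176a and 2.33 ± 0.63 for Tmem176b. Neither passed the edgeR test after adjustment (adjusted p = 0.225 and 0.401, unadjusted p = 0.00286 and 0.0135), where 0.0971% of genes did. The sign was positive in both experiments, at 3.06 and 1.31 for Tmem176a and 3.07 and 1.46 for Tmem176b. DESeq2 called both (adjusted p = 0.00168 and 0.00194), and so did edgeR with replicate 2 of Peyer's patch ZsGreen+ left out (log2 2.88 and 2.96, adjusted p = 0.00121 and 0.043).

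**Figure D2:**
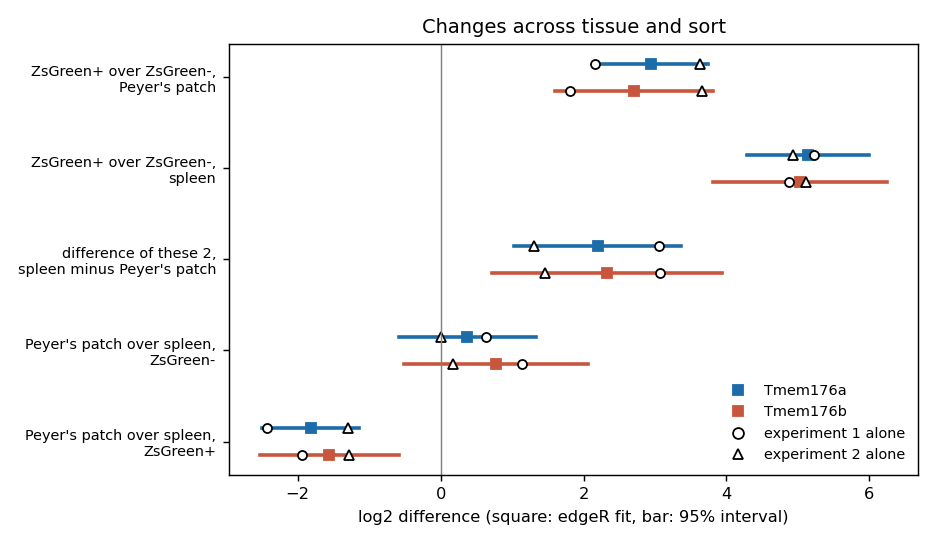
Log2 differences of Tmem176a (blue) and Tmem176b (red) in 5 comparisons: squares are the edgeR fit, bars its 95% interval, and open circles and triangles the values within experiments 1 and 2. The intervals of the sort comparison lie above 0 in both tissues, and those of Peyer's patch over spleen in ZsGreen- cells include 0.

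Between the tissues, ZsGreen+ cells of Peyer's patch had less Tmem176a than those of spleen. The log2 fold change, Peyer's patch over spleen, was -1.82 ± 0.29 for Tmem176a (SE, edgeR adjusted p = 0.00686), with -2.43 and -1.30 within experiments 1 and 2. The value for Tmem176b was -1.56 ± 0.38 (SE, edgeR adjusted p = 0.0633), just short of the threshold, with -1.93 and -1.28 within the experiments. It passed without replicate 1 or 2 of Peyer's patch ZsGreen- (adjusted p = 0.00123 and 0.00112 by edgeR) or replicate 2 of Peyer's patch ZsGreen+ (0.00569). Here 7.17% of genes were called lower in Peyer's patch. For both genes both spleen ZsGreen+ libraries were above both Peyer's patch ZsGreen+ libraries, as they were for 9.72% of genes, although for Tmem176b the nearest 2 libraries were close, at 94.2 and 102 CPM.

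In ZsGreen- cells the tissues did not differ by the test. The log2 fold change, Peyer's patch over spleen, was 0.38 ± 0.41 (SE, interval -0.58 to 1.33, edgeR adjusted p = 0.734) for Tmem176a. For Tmem176b it was 0.77 ± 0.50 (SE, interval -0.52 to 2.06, edgeR adjusted p = 0.54). These intervals leave room for a difference in either direction. The libraries of Tmem176a overlapped between the tissues, while both Peyer's patch libraries of Tmem176b were above both spleen libraries, as were those of 8.43% of genes. Without replicate 1 of Peyer's patch ZsGreen- the sign turned for both genes (-0.10 and -0.06).

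The levels thus ran from spleen ZsGreen+ through Peyer's patch ZsGreen+ to the ZsGreen- groups, and the order of the 2 ZsGreen- groups was not resolved beyond their spread.

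The proportion of the pair was steadier than its level. Tmem176a gave 36.6% of the pair's counts in Peyer's patch ZsGreen- cells of experiment 1 (exact binomial 95% interval 30.1% to 43.4%, 216 counts) and 41.1% in those of experiment 2 (31.9% to 50.8%, 112 counts). In spleen ZsGreen- cells it gave 45.1% (35.8% to 54.8%, 113 counts) and 44.0% (32.5% to 55.9%, 75 counts). The ZsGreen- libraries therefore fix this share only loosely, and all of these intervals cover counting error only. Peyer's patch ZsGreen+ cells had 42.7% (39.3% to 46.2%, 822 counts) and 40.7% (38.6% to 42.8%, 2118 counts). Spleen ZsGreen+ cells had 51.3% in experiment 1 (49.7% to 52.9%, 3918 counts) and 41.1% in experiment 2 (39.6% to 42.5%, 4523 counts). The spleen ZsGreen+ library of experiment 1 thus had the highest share of the 8, and the 2 libraries of that group differed by more than counting error.

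**Figure D3:**
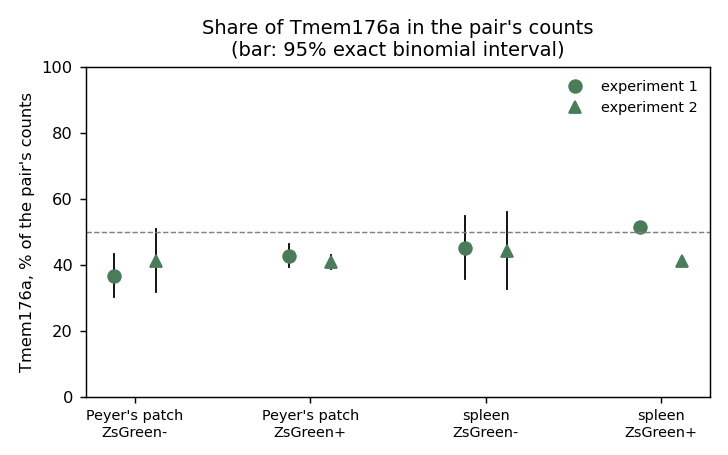
Tmem176a as a percentage of the summed counts of the pair in each library, with exact binomial 95% intervals as bars (those of the spleen ZsGreen+ libraries are shorter than the symbols), circles for experiment 1 and triangles for experiment 2. The dashed line marks equal counts, and only the spleen ZsGreen+ library of experiment 1, at 51.3%, lies above it.

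Per exon length, Tmem176a was the lower gene in every library, with a median ratio to Tmem176b of 0.449 (0.359 to 0.656 over the 8 libraries). With the longest principal transcript of each gene as the length (1540 bp and 1648 bp), a choice made after seeing the data, the median was 0.772 (0.617 to 1.13), and the order turned in the spleen ZsGreen+ library of experiment 1. The choice of length moves this ratio by the same factor in all libraries and leaves differences between libraries as they are.

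The log2 ratio of Tmem176a to Tmem176b did not separate the sorts. Within the 4 matched pairs of libraries, ZsGreen+ minus ZsGreen- was 0.37 and -0.02 in Peyer's patch and 0.36 and -0.17 in spleen for experiments 1 and 2. The mean was 0.13 ± 0.27 (SD, 4 pairs, exact two-sided permutation p = 0.5). The direction followed the experiment rather than the tissue. Peyer's patch was below spleen in 4 of 4 pairs, by -0.51 and -0.17 in ZsGreen- cells and -0.50 and -0.02 in ZsGreen+ cells. The mean was -0.30 ± 0.24 (SD, 4 pairs, exact two-sided permutation p = 0.125, the smallest that 4 pairs allow). Neither of these 2 comparisons could reach a p under 0.05 with 4 pairs. In both, the differences grouped by experiment. The 4 pairs rest on 2 experiments and are not independent, as the permutation test assumes.

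Of the 10 RefSeq genes on each side, 7 were in both tables and tested, all of them Gimap genes (GTPases of immunity-associated proteins, expressed in lymphocytes) 63.0 to 155 kb to the Tmem176b side. The other 13, which include all those nearer to the pair and all on the Tmem176a side, were not analysed here. Between the sorts of Peyer's patch 0 of the 7 rose and 1 fell, namely Gimap7 with a log2 fold change of -0.80 (edgeR adjusted p = 0.0433). In spleen 0 rose and 2 fell, namely Gimap6 (-0.81, edgeR adjusted p = 0.0202) and Gimap3 (-0.80, adjusted p = 0.0315). At an unadjusted p under 0.05, and by DESeq2, 0 rose in either tissue as well. Over these 7 genes the median log2 fold change was -0.35 in Peyer's patch and -0.33 in spleen, against 0.00 and -0.03 over all genes. Genes called lower were 0.153% of all genes in Peyer's patch and 4.09% in spleen.

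**Figure D4:**
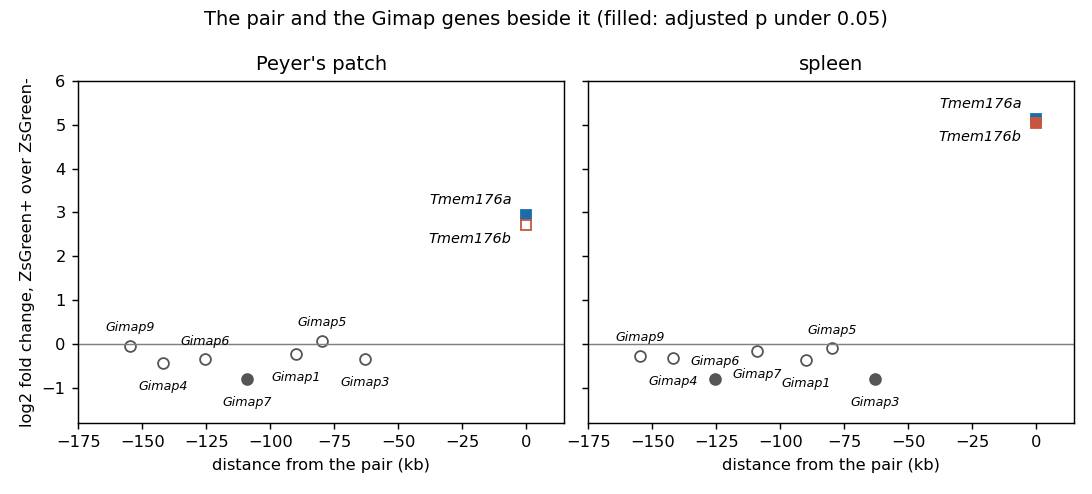
Log2 fold change, ZsGreen+ over ZsGreen-, of the pair (squares at 0 kb) and of 7 Gimap genes (circles) against distance from the pair in kb, in Peyer's patch (left) and spleen (right), with filled symbols at adjusted p under 0.05. The Gimap genes lie between -0.81 and 0.07, and the pair between 2.71 and 5.14.

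Rora rose in spleen (1.66, edgeR adjusted p = 0.0113) and had 0.78 in Peyer's patch (adjusted p = 0.486).

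A list of 19 genes of the Th17 program set the pair among its regulators, receptors and cytokines. Of these, 4 rose between the sorts of Peyer's patch and 0 fell, a share to be read against the 0.284% called higher over all genes, and the list's median log2 fold change was 0.78 against 0.00 over all genes. They were the IL-23 receptor gene Il23r (3.29), the IL-17 receptor family gene Il17re (2.54), and the chemokine receptor genes Ccr6 (2.31) and Cxcr6 (1.70). In spleen 12 of the 19 rose and 0 fell, against 4.53% called higher over all genes, with a median of 2.37 against -0.03. At an unadjusted p under 0.05, 0 fell in Peyer's patch and 1 fell in spleen, and DESeq2 called 0 lower in both. Between the tissues in ZsGreen+ cells, 10 of the 19 were lower in Peyer's patch and 2 were higher, the transcription factor genes Maf (0.60) and Hif1a (1.05), where 7.17% of all genes were called lower and 5.51% higher. Stat3, Irf4, Runx1 and Tgfbr1, which act in Th17 differentiation, were called in neither sort comparison. Th17 cytokine genes were expressed at the time of the sort. In spleen ZsGreen+ cells Il17a had 93.1 and 253 CPM in experiments 1 and 2, and Il17f had 81.8 and 606 CPM. Il22 had 94.4 and 970 CPM there, and its rise was not called (edgeR adjusted p = 0.0704). Whether the pair follows past or present Th17 expression was not tested.

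**Figure D5:**
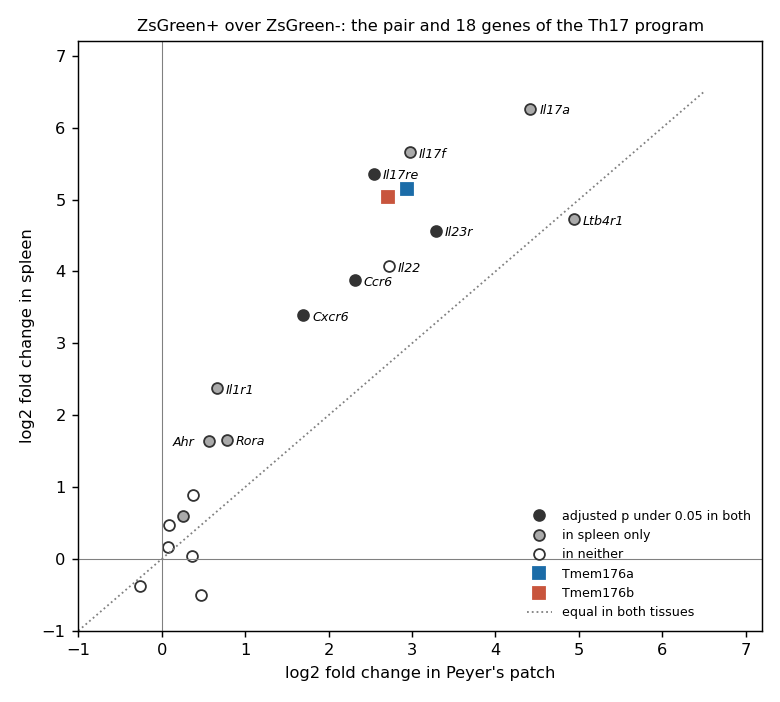
Log2 fold change, ZsGreen+ over ZsGreen-, in Peyer's patch (horizontal) against spleen (vertical) for the pair (squares) and 18 genes of the Th17 program (circles shaded by the edgeR call), with a dotted line where the tissues are equal. Ccl20 is not drawn because both Peyer's patch ZsGreen- libraries had 0 counts. The pair, at 2.94 and 5.14 and at 2.71 and 5.03, lies near Il17re and Il17f.

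Set on a scale per exon length, both genes of the pair lay between Il17re and Ccr6 in spleen ZsGreen+ cells. Over the 19 genes of the Th17 list, means there ran from 3.66 (Tgfbr1) to 479 CPM per kb (Il22). Mean levels in spleen ZsGreen+ cells were 69.6 CPM per kb for Tmem176b, 34.9 for Tmem176a, 28.1 for Il23r, 14.7 for Il17re and 133 for Ccr6. In Peyer's patch ZsGreen+ cells they were 25.5 CPM per kb for Tmem176b, 11.1 for Tmem176a, 6.16 for Il23r, 2.81 for Il17re and 77.2 for Ccr6. These values depend on the length used. Per kb of its longest principal transcript, Tmem176a had 69.5 and 103 CPM in the spleen ZsGreen+ libraries.

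The genes most like the pair were found by the correlation, across the 8 libraries, of log2 CPM centred on each experiment's mean with the mean of the pair. The libraries share 4 groups and 2 experiments, and a high value mainly says that a gene separates spleen ZsGreen+ from Peyer's patch ZsGreen+ and both from ZsGreen- cells. Tmem176a and Tmem176b correlated with each other at r = 0.995. The 6 highest of 14416 other genes were Aqp3, a water and glycerol channel gene (r = 0.997), Il17re (0.990), Pxdc1 (0.990), Fbxo27 (0.989), Laptm4b, a lysosomal membrane protein gene (0.987), and Dcaf13 (0.984). Of all genes, 0.465% had r over 0.95. Ccr6 (0.967) and Il23r (0.952) ranked 35 and 62, and Rora (0.632) ranked 1996.

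A high correlation did not mean a large change. Aqp3 rose by a log2 fold change of 1.83 in Peyer's patch (edgeR adjusted p = 0.00155) and 3.32 in spleen (adjusted p = 6.26e-06), with 12.3 and 41.9 CPM in Peyer's patch ZsGreen+ cells and 31.3 and 86.9 CPM in spleen ZsGreen+ cells. Dcaf13, a ribosome biogenesis gene, had 0.14 and 0.37 and passed in neither tissue (edgeR adjusted p = 0.845 and 0.0967). The most negative were Ampd3, an AMP deaminase gene (r = -0.991), Cln3, a lysosomal protein gene (-0.990), and Bcl11b, a T cell transcription factor gene (-0.982). These 3 fell in spleen, by -2.17, -0.61 and -0.65 on the log2 scale (edgeR adjusted p = 0.00196, 0.0447 and 0.0224). The genes of this paragraph were picked by their correlation over the same libraries. Their changes and p-values are therefore no independent evidence.

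The MS4A family is structurally related to the pair. Of 18 listed genes 9 were in both tables and 7 were tested. Between the sorts of Peyer's patch edgeR and DESeq2 called 0 of the 7 (1 at an unadjusted p under 0.05). In spleen 1 fell, Ms4a4b, a T cell member of the family, with a log2 fold change of -1.29 (edgeR adjusted p = 0.0194), against 4.09% of all genes called lower. At an unadjusted p under 0.05, 1 was higher and 2 were lower in spleen. The higher one was Ms4a1, which encodes the B cell marker CD20 and was picked out after its values were seen. It had 0.479 and 0.343 CPM in spleen ZsGreen+ cells and 0 counts in both ZsGreen- libraries, at least 3.59-fold higher against a floor of 3 counts over the group (edgeR adjusted p = 0.0846). The family's median log2 fold change was 0.02 in Peyer's patch and -0.46 in spleen. Between the tissues Ms4a4b and Ms4a4c were lower in Peyer's patch in both sorts, Ms4a4c by -2.62 in ZsGreen- and -2.80 in ZsGreen+ cells. Among all genes 3.68% were called lower in Peyer's patch in ZsGreen- cells.

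Among 12 inflammasome and IL-1 release genes, 10 were in both tables and 9 were tested, and edgeR and DESeq2 called 0 between the sorts of Peyer's patch (2 at an unadjusted p under 0.05). In spleen the DNA sensor gene Aim2 rose (0.67, edgeR adjusted p = 0.019) and the sensor gene Nlrc4 fell (-1.76, adjusted p = 0.0259), where 4.53% of all genes were called higher and 4.09% lower. Pycard, the adaptor of the inflammasome, stood at 63.4 to 334 CPM and Casp1, its protease, at 45.6 to 135 CPM over the 8 libraries, while Il1b had at most 0.599 CPM. Between the tissues Pycard was lower in Peyer's patch (-0.60 in ZsGreen- and -0.91 in ZsGreen+ cells) and P2rx7, the ATP receptor gene, was higher (0.78 and 0.71). Genes called higher in Peyer's patch in ZsGreen- cells were 1.82% of all genes.

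Myeloid and dendritic cells, innate lymphoid cells and γδ T cells are other known sources of the pair, and their markers were counted. Of 16 myeloid and dendritic genes 13 were in both tables and 11 were tested. Between the sorts of Peyer's patch edgeR and DESeq2 called 0 (2 at an unadjusted p under 0.05). In spleen Xcr1 rose (3.25, edgeR adjusted p = 0.00541) and 0 fell (1 at an unadjusted p under 0.05, 0 by DESeq2 and 1 by limma voom), while 4.53% of all genes were called higher. Xcr1, a chemokine receptor gene of dendritic cells, had 5.59 and 11.7 CPM in spleen ZsGreen+ cells against 0.695 and 0.920 CPM in ZsGreen- cells. Their summed level was 24.8 to 27.1 CPM in spleen ZsGreen+ cells against 25.6 to 30.7 CPM in ZsGreen- cells, and 35.0 to 47.0 against 34.3 to 41.3 CPM in Peyer's patch. Itgax, which encodes CD11c, was at 0 CPM in 1 library of each group other than Peyer's patch ZsGreen-. Adgre1, which encodes F4/80, was at 0 CPM in 1 library of each Peyer's patch group. Other members were present in every library, with Lyz2 at 15.7 to 26.8 CPM in Peyer's patch and 4.03 to 9.96 CPM in spleen. Cd68 stood at 1.22 to 14.5 CPM over all libraries. In ZsGreen+ cells edgeR called Lyz2 (1.89) and Cd68 (1.77) higher in Peyer's patch than in spleen, and Itgam (-3.25) and Xcr1 (-2.63) lower. For that comparison 5.51% of all genes were called higher and 7.17% lower. Itgam was near the floor, at 0.225 and 0 CPM in Peyer's patch ZsGreen+ and 1.97 and 0.343 CPM in spleen ZsGreen+ cells, so the size of its change is uncertain. The part of myeloid and dendritic cells in the result was not tested.

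Of 8 innate lymphoid and γδ T cell genes, 6 were in both tables and tested. Between the sorts of Peyer's patch Kit (1.41) rose and 0 fell by edgeR (1 at an unadjusted p under 0.05, 1 by DESeq2), against 0.284% of all genes called higher. At an unadjusted p under 0.05, 3 of the 6 were higher there, and DESeq2 called 1 higher. In spleen Kit (1.69), Klrb1b (3.76) and Id2 (1.01) rose and Trdc, the constant region of the γδ receptor, fell (-2.29), against 4.53% of all genes called higher and 4.09% lower. Klrb1b was near the floor in spleen ZsGreen- cells, at 0.0535 and 0.767 CPM, so the size of its change is uncertain. At an unadjusted p under 0.05, 5 of the 6 were higher and 1 was lower in spleen. DESeq2 called 4 of the list higher and 1 lower in spleen, and limma voom called 5 higher and 0 lower. The summed level of the list was 404 to 1421 CPM in spleen ZsGreen+ and 212 to 757 CPM in spleen ZsGreen- cells, and 122 to 306 against 126 to 245 CPM in Peyer's patch. In spleen most of this sum was Id2, at 274 and 1344 CPM in ZsGreen+ and 143 and 638 CPM in ZsGreen- cells. Trdc had 4.58 and 13.1 CPM in spleen ZsGreen+ against 13.7 and 89.4 CPM in spleen ZsGreen- cells. The part of innate lymphoid and γδ T cells in the result was not tested. Of 9 B cell genes and 7 epithelial genes, 7 and 6 were tested, and edgeR and DESeq2 called 0 of either list in either sort comparison. At an unadjusted p under 0.05 there were 0 and 1 such genes in Peyer's patch and 4 and 1 in spleen. Of 6 CD8 T and NK cell genes 4 were tested, and edgeR called 0 in either tissue, while 1 in each was lower at an unadjusted p under 0.05 and by DESeq2. The B cell genes summed to 63.1 CPM in the Peyer's patch ZsGreen+ library and 36.3 CPM in the Peyer's patch ZsGreen- library of experiment 1. In experiment 2 these sums were 4.73 and 4.99 CPM, and spleen had at most 4.29 CPM.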

How the data were processed

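Per the submitters' processing notes, Partek, STAR, DESeq2 and the build mm39 were used, but no role, version or setting is recorded there. The authors deposited estimated counts per gene and a normalized signal, which is these counts times 1 constant per library (0.765 to 1.58). The estimated counts were rounded and tested with edgeR 4.0.16 in R 4.3.3 on the 14418 of 16735 shared genes that passed filterByExpr (minimum count 10, minimum total 15), with TMM factors of 0.656 to 1.24. The quasi-likelihood fit modelled 4 group means plus an experiment effect (3 residual degrees of freedom), and the p-value threshold was 0.05 after Benjamini-Hochberg adjustment over all genes tested. The replicate number of the labels is the experiment, and deviations from group means correlated across genes at 0.825 to 0.867 over 6 pairs of groups. Log2 CPM has a prior count of 2. SE was derived from the F statistic. The fit was tested on simulated data with 14107 genes. Of genes changed 4-fold, 98% were recovered in the Peyer's patch comparison and 100% in the spleen comparison. Of those changed 2-fold, 64% were recovered in each. The simulation gave all genes the same dispersion and changed only better-expressed genes, equally in every library. Its recovery therefore does not carry over to the pair, whose spread was not simulated. Named genes were the pair, Rora, Il23r, Il17re and Ccr6, the 6 genes with the highest and the 3 with the most negative correlation, and the neighbours. Called members of the lists were also named (up to 4 per list and comparison). Not every called list member is named, in particular among those called between the tissues. Further list members are named for their role, after their values were seen. The members and lists were chosen with earlier results of these data known. Alternatives were other scalings, filters and tools (DESeq2 1.42.0, limma 3.58.1, and limma on the log2 of the authors' signal plus 1), no experiment term, and each library left out. Protein sequences were not used here, and 1 gene of the naming rule and lists is not reported here.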

Additional observations from a re-analysis of the deposited data

How the results depend on the processing

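Of the values of the pair, the spleen change of Tmem176a and its tissue difference in ZsGreen+ cells kept their calls with each library left out. Fitting without the replicate block, that is without the experiment pairing, ended every call of the pair: Tmem176a had 3.17 in Peyer's patch, 5.11 in spleen and -1.66 for Peyer's patch over spleen in ZsGreen+ cells, and Tmem176b had 5.09 in spleen. That fit called 0 genes in Peyer's patch and 0 in spleen by edgeR, with 111 and 398 at an unadjusted p under 0.05 (DESeq2 with the block called 147 in Peyer's patch).

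With library totals in place of TMM factors further values passed, namely the interaction (2.19 for Tmem176a, 2.32 for Tmem176b). For Tmem176b, Peyer's patch (2.86) and the tissue difference in ZsGreen- (0.93) and ZsGreen+ cells (-1.40) passed too. That fit called 170 genes in Peyer's patch. Its edgeR adjusted p-values were far smaller at similar log2 fold changes. For Tmem176a in spleen the value was 1.11e-63, against 0.000361 with TMM factors. This drop was not explained, and the calls of that fit are not read as support. DESeq2 also passed the interaction (2.23 and 2.36) and, for Tmem176b, Peyer's patch (2.71) and the tissue difference in ZsGreen+ cells (-1.59). That tissue difference passed with limma voom (-1.60, beside 2.76 for Peyer's patch) and on the signal (-1.63). The cause was not tested.

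Leaving out each library moved Tmem176a from 2.31 to 3.49 in Peyer's patch, from 1.66 to 2.88 for the interaction and from -0.10 to 0.73 for the tissues in ZsGreen- cells. For the tissues in ZsGreen+ cells it moved from -2.48 (without replicate 2 of Peyer's patch ZsGreen+) to -1.29 (without replicate 1 of that group). For Tmem176b the ranges were 2.07 to 3.49, 1.53 to 2.96 and -0.061 to 1.36, with 4.94 to 5.13 in spleen and -2.19 to -1.09 for the tissues in ZsGreen+ cells. The negative values for the tissues in ZsGreen- cells (-0.10 and -0.061) came without replicate 1 of Peyer's patch ZsGreen-. Counts of genes called ran from 7 (without that same library) to 88 in Peyer's patch, with 18 without replicate 2 of Peyer's patch ZsGreen-. In spleen they ran from 487 (without replicate 2 of spleen ZsGreen+) to 1357, with 510 without replicate 2 of spleen ZsGreen- and 591 without replicate 1 of spleen ZsGreen+. Where a library is left out, the lone sample of its group is assumed to vary like the others. The 33 to 137 counts of the members in ZsGreen- libraries limit the precision of all ratios to them.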
